A study of Mus musculus with 6 samples.

Results

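The interferon-stimulated genes examined here are 33 genes of the type I interferon response, chosen by symbol. Of these, 31 had a probe set with 1 gene symbol and were analysed, among 19938 genes measured on the arrays. Isg15 is listed only on a probe set shared with another gene and Ifi44 on none, so neither is analysed here. Type I interferons bind a receptor of 2 chains, IFNAR1 and IFNAR2, whose kinases JAK1 and TYK2 activate STAT2. A complex that holds STAT2 and IRF9 then binds interferon-stimulated response elements, short DNA motifs near the start of target genes. The targets include sensors and enzymes that act on foreign RNA, proteins that block viral entry or assembly, and regulators that amplify or end the response. In the intestine, signals from microbes keep a low tonic interferon response in several cell types, and developing B cells carry the same receptor.

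The study compared B lineage cells sorted for a RAG2-GFP reporter in 2 tissues. The cells in question came from the small intestinal lamina propria, the tissue that underlies the absorptive lining of the gut, and were set against cells from the bone marrow, where most B cells are made after birth. Each tissue gave 3 pools, and each pool was 1 array. All pools came from mice labelled RAG2-GFP/129Sve, aged 17 to 25 days after birth and kept in a specific pathogen free facility, with 8 to 12 mice per experiment and no treatment named. Both tissues therefore carry the reporter, and each array averages over several animals. The reporter protein can outlast Rag2 transcription, so fluorescence includes cells that recombined recently. Values are RMA values on the log2 scale, and differences are lamina propria minus bone marrow in log2 units, so that 1 unit is a doubling. Adjusted p-values come from limma (Benjamini-Hochberg, every measured gene included), and a gene was called at an adjusted p under 0.05. No detection calls were used, so whether a dim probe set lies above background was not measured. In sorted pools, fewer cells that express a gene and less RNA per cell cannot be told apart.

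The arrays of lamina propria pools 1 and 2 stood apart from the other 4. Their interquartile range over all probe sets was 2.00 and 1.94, against 2.41 to 2.47 in the others. Their correlation over genes with the marrow arrays was 0.766 to 0.828, against 0.954 to 0.966 for pool 3 and 0.957 to 0.980 among the marrow arrays. In pools 1 and 2, genes with a marrow mean of 4 to 5 had median differences of 0.52 and 0.54 from the marrow mean, and genes with a marrow mean of 8 to 9 had median differences of -1.38 and -1.55 from it. In pool 3 these medians were 0.01 and -0.04. The main differences are therefore given with the value in each pool. B lineage markers were present in every array, with 9 of 10 measured and a mean log2 level over the list of 9.83 to 10.18 in the lamina propria and 9.84 to 10.53 in marrow. The markers were lower on average in the lamina propria for 8 of 9. Rag1, a subunit of the recombinase, lay lower in every lamina propria pool, with 9.75, 9.68 and 10.47 in the lamina propria pools, against 10.92, 10.99 and 11.15 in the marrow pools, and a difference of -1.05. Whether the tissues differ in the stage of their B lineage cells, and its part in the differences given here, was not tested.

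No interferon-stimulated gene passed the threshold, and neither did any gene on the arrays (0%, smallest limma adjusted p = 0.155). At an unadjusted p under 0.05, limma gave 1 of the 31 higher in the lamina propria and 6 lower. Over all 19938 genes it gave 1103 higher and 1625 lower, which is 13.7% in either direction. The difference was negative for 19 of 31 (61.3%), against 32.4% of all genes. It was negative for 23 of 31 (74.2%) with arrays centred and after cyclic loess, against 38% and 48.3% of all genes. The median difference was -0.12 against 0.22 over all genes, and the value for all genes depends on level. Among genes above the median level it was -0.12 for the 20 listed genes there and -0.05 for all genes, with 65% and 52.4% negative. Without marrow pool 2 the median over the 31 was 0.026, with 14 negative. In 7 of 31 (22.6%) the 3 lamina propria pools did not overlap the 3 marrow pools, and over all genes this share was 22.1%, so the count of separated genes was at the background. Their direction was mostly downward. Samd9l, Eif2ak2, Parp14, Rtp4 and Trim25 lay lower in every lamina propria pool, which is 5 of 31 (16.1%) beside 7.27% of all genes. Among genes above the median level these were 5 of the 20 listed genes, beside 12% of all genes there. Oasl1 and Oas3 lay higher in every lamina propria pool, 2 of 31 (6.45%) beside 14.8%. The first 4 of the lower genes also differed by at least 1 log2 unit (12.9% beside 4.37%), and neither of the separated higher genes did. Without lamina propria pool 3, limma called 7 of 31 (Samd9l, Eif2ak2, Parp14 and Rtp4 lower, Ifitm3, Oasl1 and Rsad2 higher), beside 36.2% of all genes.

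**Figure D1:**
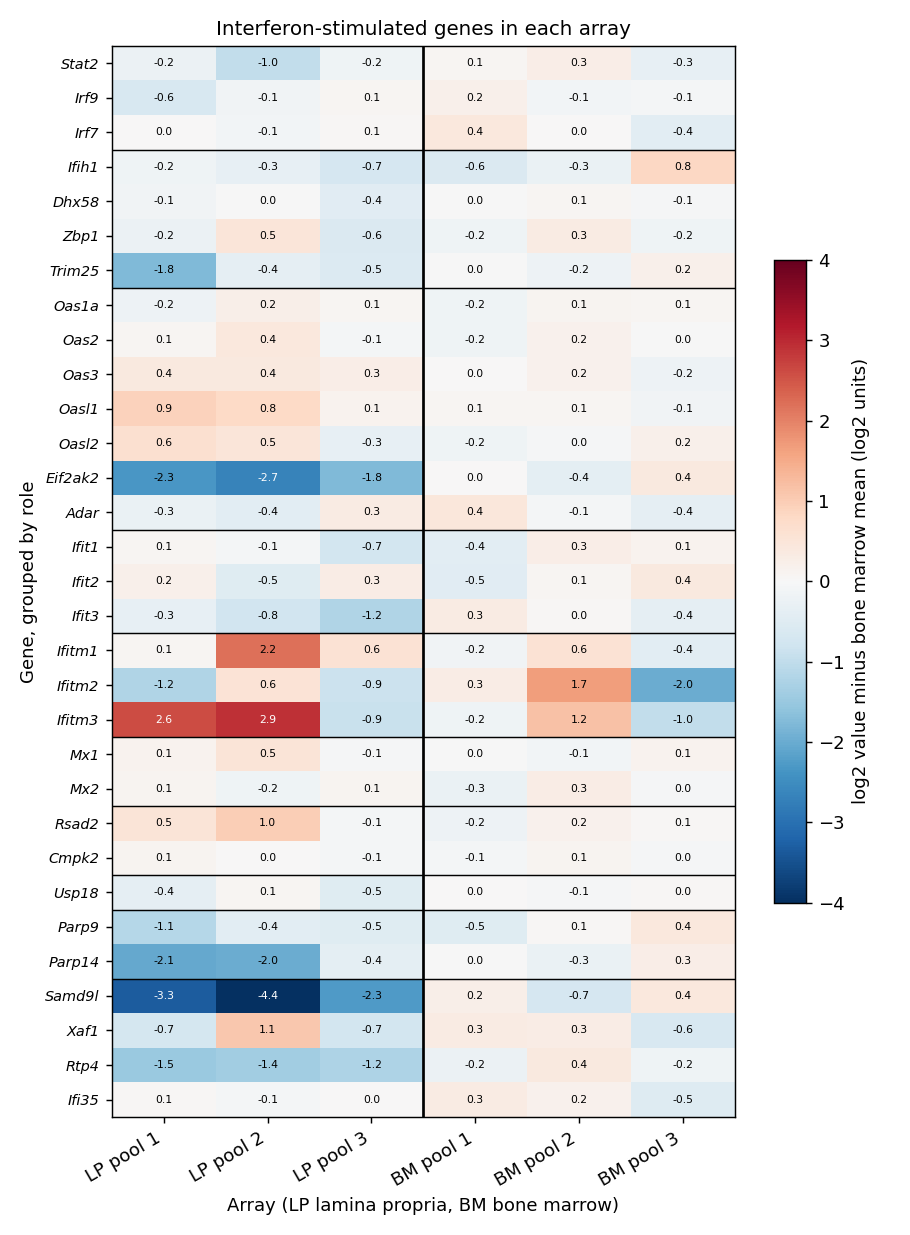
Each cell is the log2 value of 1 gene (row) in 1 array (column) minus that gene's mean over the 3 bone marrow (BM) arrays, with lamina propria (LP) arrays left of the heavy line. Horizontal lines separate roles. Samd9l, Eif2ak2 and Rtp4 are below the marrow in all 3 lamina propria pools, while Ifitm3 is above it in pools 1 and 2 and below its mean in pool 3.

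Lamina propria pool 3, the lamina propria array most like the marrow arrays, held lower values for many of these genes. In that pool 15 of 31 (48.4%) lay below all 3 marrow pools, beside 26.7% of all genes, and 3 of 31 (9.68%) lay above all 3, beside 24.8%. The median of pool 3 minus the marrow mean was -0.33 over the 31 genes, against -0.01 over all genes. In pools 1 and 2 the median over the 31 genes was -0.17 and -0.08, against 0.31 and 0.31 over all genes. Genes at a marrow mean of 6 to 7 had medians of -0.09 and -0.13 there, close to those of the 31 genes. The low values of pool 3 rest on 1 array and have no replicate check within the tissue. With pools 1 and 2 left out, limma called 0 genes, and 1424 of all genes had an unadjusted p under 0.05, with the lone pool assumed to vary like the marrow pools.

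**Figure D2:**
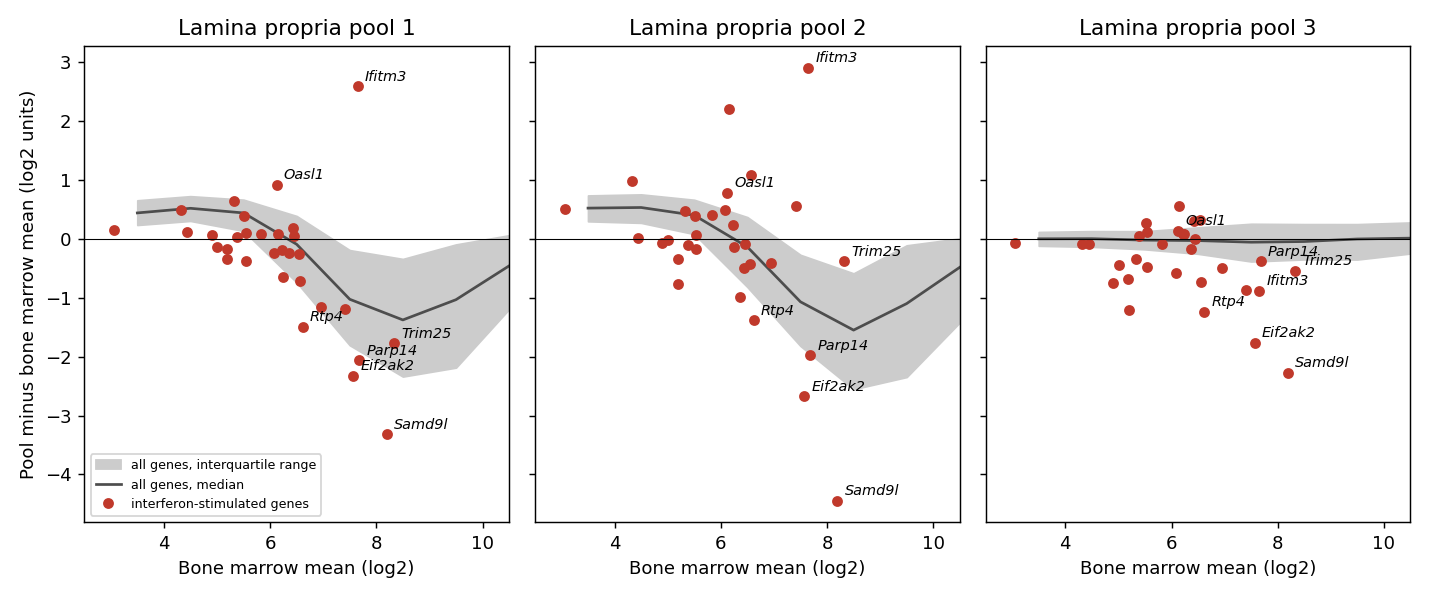
Each panel plots the value in 1 lamina propria pool minus the bone marrow mean (vertical axis, log2 units) against the bone marrow mean (horizontal axis, log2), with red points for the 31 interferon-stimulated genes and a grey line and band for the median and interquartile range of all genes by marrow level. In pool 3, where the median of all genes stays near 0, Samd9l, Eif2ak2 and Rtp4 lie far below the band.

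The gene with the largest difference was Samd9l, an interferon-induced gene that restrains growth of blood cells and replication of poxviruses. Its values were 4.88, 3.75 and 5.92 in lamina propria pools 1 to 3, against 8.43, 7.54 and 8.61 in the marrow pools. The highest lamina propria pool was thus far below the lowest marrow pool. The difference was -3.35 (95% interval -4.64 to -2.05, limma adjusted p = 0.182), or 10.2-fold lower. Genes at a marrow mean of 8 to 9 lay lower in pools 1 and 2 as well, with interquartile ranges of -2.34 to -0.34 and -2.55 to -0.58. Samd9l lay beyond these ranges, at -3.32 and -4.44 from the marrow mean. In pool 3 the interquartile range was -0.35 to 0.25 and Samd9l was at -2.27.

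Eif2ak2 encodes PKR, the kinase that stops translation on binding double-stranded RNA. It had 5.24, 4.90 and 5.80 in the lamina propria pools, against 7.58, 7.16 and 7.96 in the marrow pools. The highest lamina propria pool lay more than 1 log2 unit under the lowest marrow pool. The difference was -2.25 (95% interval -2.99 to -1.52, limma adjusted p = 0.155), or 4.76-fold lower. Its distances from the marrow mean were -2.32, -2.67 and -1.76, while genes at a marrow mean of 7 to 8 had medians of -1.02, -1.07 and -0.05 in the same pools. Samd9l and Eif2ak2 were the 2 genes of the list that passed with an intensity trend and robust variances (limma adjusted p = 0.0456 and 0.0362), a setting in which 0.201% of all genes passed.

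Rtp4, a receptor transporter protein that binds interferon-pathway components and restrains flaviviruses, differed by a like amount in each pool. The lamina propria pools had 5.13, 5.24 and 5.38, against 6.40, 7.01 and 6.44 in the marrow pools. The 3 lamina propria pools lay close together, and all were well under the lowest marrow pool. Its mean was 5.25 ± 0.13 over the lamina propria pools and 6.62 ± 0.34 over the marrow pools (SD, n = 3 each). The difference was -1.37 (95% interval -1.92 to -0.81, limma adjusted p = 0.206), and it was -1.24 in pool 3 alone.

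Parp14 and Parp9, ADP-ribosyltransferase family members that modify antiviral and STAT signalling proteins, both averaged lower. Parp14 had 5.62, 5.70 and 7.30 in the lamina propria pools, against 7.67, 7.41 and 7.96 in the marrow pools. The groups did not overlap, but pool 3 lay only just under the lowest marrow pool, and its distance from the marrow mean was -0.38 against -2.06 and -1.98 in pools 1 and 2. The difference was -1.47 (95% interval -2.54 to -0.40, limma adjusted p = 0.356). All genes at a marrow mean of 7 to 8 had a median difference of -0.69, with -1.02, -1.07 and -0.05 in pools 1 to 3. Parp9 had 5.80, 6.54 and 6.46 in the lamina propria pools, against 6.48, 7.01 and 7.37 in the marrow pools, and 1 lamina propria pool fell inside the marrow range. Dtx3l, the ubiquitin ligase that pairs with PARP9, had 5.07, 6.07 and 7.39 in the lamina propria pools, against 7.01, 7.75 and 7.57 in the marrow pools, with pool 3 inside the marrow range.

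**Figure D3:**
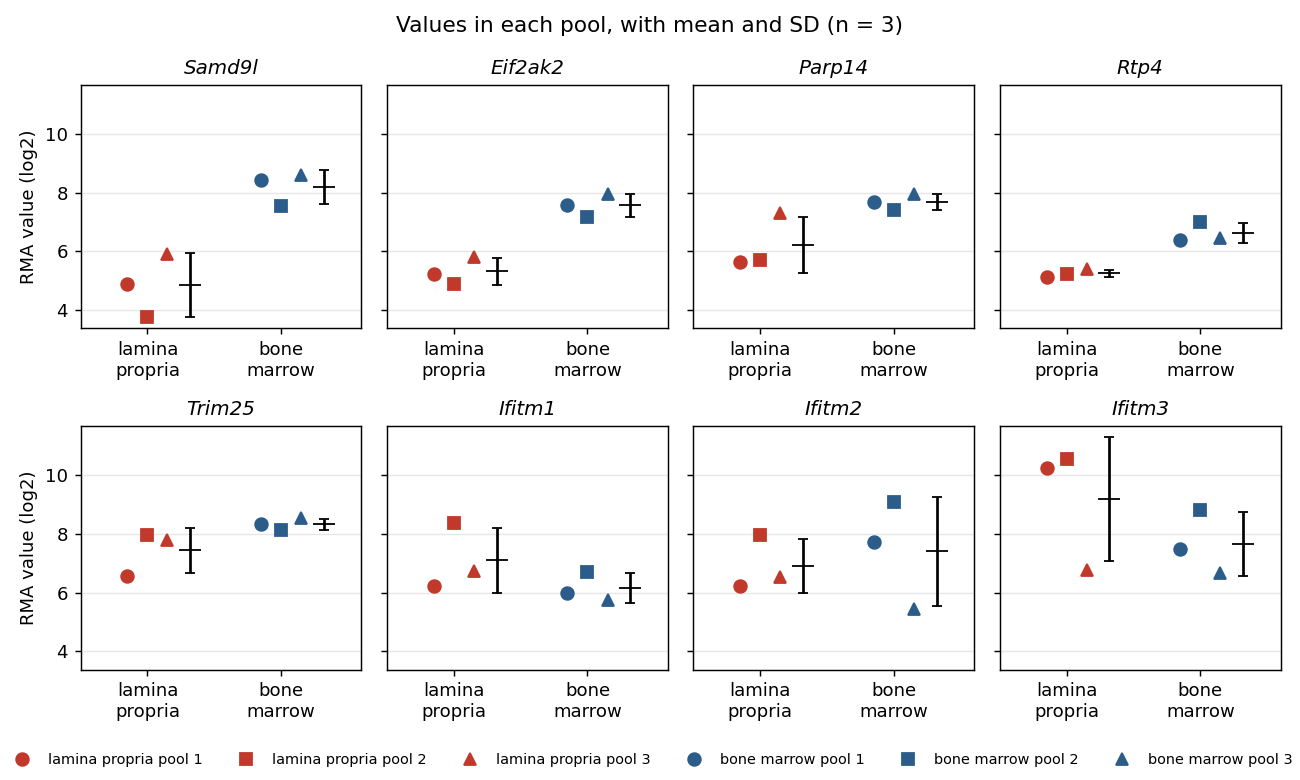
RMA values (vertical axis, log2) of 8 genes in each pool, lamina propria in red left of bone marrow in blue, with symbols for pools 1 to 3 and black marks for the mean and SD (n = 3). The top row and Trim25 show no overlap between the tissues, while the 3 Ifitm genes overlap, with pool 2 highest in both tissues for all 3.

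The transcription regulators of the pathway showed little difference. Stat2, the signal-carrying subunit that pairs with IRF9, had 6.11, 5.37 and 6.19 in the lamina propria pools, against 6.43, 6.62 and 6.03 in the marrow pools. Its difference was -0.47 (95% interval -1.15 to 0.22, limma adjusted p = 0.381), with overlap. Irf9, the DNA-binding partner in that complex, had 5.60, 6.10 and 6.33 in the lamina propria pools, against 6.44, 6.13 and 6.15 in the marrow pools, a difference of -0.23. Irf7, which drives the later wave of interferon genes, differed by -0.01 (95% interval -0.60 to 0.59), with 5.27 to 5.44 in the lamina propria and 4.96 to 5.79 in marrow. For these 3 genes the value in pool 3 lay inside the marrow range.

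All 4 sensor genes had a negative difference, and all 4 lay below every marrow pool in lamina propria pool 3. Trim25, a ubiquitin ligase that assists RNA sensing, had 6.56, 7.96 and 7.79 in the lamina propria pools, against 8.32, 8.14 and 8.53 in the marrow pools. Every lamina propria pool was under every marrow pool, though pool 2 came close to the nearest of them. The difference was -0.89 (95% interval -1.78 to -0.01, limma adjusted p = 0.356), and it was -0.46 without pool 1. All genes at a marrow mean of 8 to 9 had a median difference of -0.97, so on average Trim25 was no lower than these. By pool Trim25 was at -1.77, -0.37 and -0.54 from the marrow mean, against medians of -1.38, -1.55 and -0.04 for these genes. Zbp1, a sensor of left-handed nucleic acid, had 5.84, 6.57 and 5.50 in the lamina propria pools, against 5.90, 6.41 and 5.91 in the marrow pools. Its pools spread more within the lamina propria than between the tissues, with a difference of -0.11. Ifih1, the RNA sensor MDA5, differed by -0.40 with 5.02, 4.85 and 4.51 in the lamina propria pools, and its marrow mean was set by a high pool 3, without which the difference was 0.012. Dhx58, the sensor LGP2, differed by -0.20 (95% interval -0.68 to 0.28).

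The oligoadenylate synthetase genes, whose products make the activator of RNase L in response to double-stranded RNA, and their relatives had positive differences for 5 of 5, beside 67.6% of all genes. Oas1a turned negative with arrays centred, Oas2 and Oasl2 after cyclic loess, and Oas1a and Oas2 without lamina propria pool 2. Oas3 had 5.91, 5.91 and 5.78 in the lamina propria pools, against 5.54, 5.69 and 5.33 in the marrow pools. The tissues did not overlap, and the difference was 0.35 (95% interval -0.11 to 0.81, limma adjusted p = 0.363). By pool Oas3 was at 0.39, 0.39 and 0.26 from the marrow mean. All genes at its marrow level, 5 to 6, had a median difference of 0.30, with 0.44, 0.40 and -0.02 in pools 1 to 3. Oasl1, a related protein without synthetase activity that limits Irf7 translation in mice, had 7.04, 6.91 and 6.26 in the lamina propria pools, against 6.18, 6.20 and 5.98 in the marrow pools. Pool 3 was just above the highest marrow pool, and the difference was 0.62 (95% interval 0.01 to 1.22, limma adjusted p = 0.356). Oasl2 differed by 0.27 with 5.97, 5.81 and 4.99 in the lamina propria pools, against 5.15, 5.29 and 5.54 in the marrow pools, so pool 3 went the other way from pools 1 and 2. Oas1a and Oas2 differed by 0.04 and 0.14 with overlap. The Oas genes are close copies of one another, and how well their probe sets separate them was not measured here. Adar, which edits adenosines in double-stranded RNA, had 6.29, 6.11 and 6.86 in the lamina propria pools, against 6.99, 6.46 and 6.19 in the marrow pools, a difference of -0.12 with overlap. The group of enzymes that act on double-stranded RNA thus held both Eif2ak2, at -2.25, and Oasl1, at 0.62.

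The Ifit genes encode proteins that bind viral RNA lacking host cap methylation and are among the most strongly induced targets of interferon. Ifit2 had 6.62, 5.94 and 6.74 in the lamina propria pools, against 5.96, 6.50 and 6.83 in the marrow pools, and the tissues overlapped throughout. Its difference was 0.004 (95% interval -0.74 to 0.75). Ifit3 had 4.86, 4.43 and 3.98 in the lamina propria pools, against 5.53, 5.22 and 4.82 in the marrow pools. Only pool 1 reached into the marrow range, and the difference was -0.77 (95% interval -1.47 to -0.07, limma adjusted p = 0.356). Ifit1 differed by -0.25 (95% interval -0.95 to 0.45), with 4.97, 4.83 and 4.16 in the lamina propria pools, against 4.49, 5.18 and 5.03 in the marrow pools. Ifit1 and Ifit3 thus shared a low pool 3, which Ifit2 did not.

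The remaining classical targets differed little. Mx1 and Mx2 encode dynamin-like GTPases that trap viral particles, and Mx1 is defective in most inbred laboratory mouse strains. Mx1 had 3.21, 3.58 and 3.00 in the lamina propria pools, against 3.03, 2.95 and 3.20 in the marrow pools, a difference of 0.20 (95% interval -0.33 to 0.73). Mx2 differed by 0.01 (95% interval -0.52 to 0.55), with 5.36 to 5.66 in the lamina propria and 5.29 to 5.85 in marrow. Rsad2, which encodes viperin, an enzyme that makes a chain-terminating nucleotide, had 4.82, 5.30 and 4.25 in the lamina propria pools, against 4.11, 4.49 and 4.38 in the marrow pools. Pools 1 and 2 lay above the marrow and pool 3 inside its range, and the difference was 0.47 (95% interval -0.23 to 1.17). In the same 2 pools all genes at that marrow level had medians of 0.52 and 0.54. Cmpk2, its neighbour on chromosome 12 and a nucleotide kinase, differed by 0.01 (95% interval -0.43 to 0.46). Usp18, which removes ISG15 from proteins and dampens the receptor, had 5.17, 5.61 and 5.07 in the lamina propria pools, against 5.57, 5.48 and 5.58 in the marrow pools, a difference of -0.26 with overlap.

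Of the other induced genes, Xaf1, a partner of apoptosis inhibitors, had 5.85, 7.66 and 5.83 in the lamina propria pools, against 6.90, 6.86 and 5.94 in the marrow pools. A single high array, pool 2, set the lamina propria mean, and the difference of -0.12 was -0.73 without it. Ifi35, which associates with NMI, differed by -0.01 (95% interval -0.63 to 0.62), with 6.37 to 6.50 in the lamina propria and 5.93 to 6.79 in marrow. Over the list, 20 of 31 genes (64.5%) differed by less than 0.5 log2 units in either direction, beside 67.9% of all genes.

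The Ifitm genes, whose products sit in membranes and block fusion of viruses with the cell, varied most between pools. Ifitm3 had 10.25, 10.56 and 6.77 in the lamina propria pools, against 7.49, 8.81 and 6.65 in the marrow pools. Pools 1 and 2 were above every marrow pool, while pool 3 was close to the lowest of them. The difference of 1.54 had a 95% interval of -0.85 to 3.94 (limma adjusted p = 0.392), was 2.76 without pool 3 (limma adjusted p = 0.0288) and was -0.88 in pool 3 alone. Ifitm1 had 6.23, 8.36 and 6.72 in the lamina propria pools, against 5.99, 6.72 and 5.74 in the marrow pools, a difference of 0.95 (95% interval -0.33 to 2.24) that was 0.33 without pool 2. Ifitm2 had 6.21, 7.96 and 6.54 in the lamina propria pools, against 7.71, 9.09 and 5.42 in the marrow pools. Its marrow pools spanned more than 3 log2 units, which covered every lamina propria pool, and the difference of -0.50 turned to 0.34 without marrow pool 2.

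The 3 genes have 6 probe sets of 1 symbol, 2 for Ifitm1 and 3 for Ifitm2. In each of the 6 the highest lamina propria array was pool 2, the highest marrow array was pool 2 and the lowest marrow array was pool 3. The second Ifitm1 probe set differed by 1.05, and the other Ifitm2 probe sets by -0.25 and 0.28, so the sign for Ifitm2 depended on the probe set. These genes are near-identical in parts, and whether the probe sets separate them was not measured. Levels of markers of other cells are given beside these values. The 8 granulocyte markers, all measured, had a summed log2 level of 38.0 to 42.4 in the lamina propria and 39.3 to 49.7 in marrow, with the highest sum in marrow pool 2, where S100a9 was at 9.26 and S100a8 at 7.48. Of the 8, 3 were higher on average in the lamina propria and 5 lower. S100a9 was at 5.57, 5.63 and 5.30 in lamina propria pools 1 to 3, below every marrow pool. Elane, a protease of granulocyte precursors, was at 5.89, 6.17 and 5.18 in the lamina propria pools, against 5.30, 5.27 and 5.04 in the marrow pools, and so was above the marrow in pools 1 and 2, like Ifitm3. The part of these cells was not tested. The mean log2 level of 6 of 8 T cell markers was 5.27, 5.34 and 4.85 in lamina propria pools 1 to 3, against 4.66 to 4.74 in the marrow pools. The summed level of 8 of 8 epithelial markers was 45.8, 43.5 and 42.8 in lamina propria pools 1 to 3, against 40.1 to 40.8 in the marrow pools. Both were higher in pools 1 and 2 than in pool 3, like Ifitm3. All genes at a marrow mean of 4 to 5 had medians of 0.52, 0.54 and 0.01 from it in pools 1 to 3. At a marrow mean of 5 to 6, where Elane lies, these medians were 0.44, 0.40 and -0.02. Dim genes in general were thus higher in pools 1 and 2. The part of T cells and epithelium in the Ifitm3 value was not tested.

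Macrophage and plasmacytoid dendritic cell markers, which mark cells with strong interferon responses or output, gave summed log2 levels as follows. The 9 of 10 measured macrophage and monocyte markers summed to 47.8, 47.5 and 50.1 in lamina propria pools 1 to 3, and to 44.6 to 47.6 in marrow. Csf1r, the receptor that defines the lineage, was at 5.22 to 5.58 in the lamina propria and at 4.55 to 4.74 in marrow, with no overlap. Over the 9, 7 were higher on average in the lamina propria, 3 of them with no overlap, beside 67.6% and 14.8% of all genes. All genes at marrow means of 4 to 5 and 5 to 6 had median differences of 0.36 and 0.30. Cd68 went the other way with no overlap, at 5.13 to 5.52 in the lamina propria and 5.54 to 6.20 in marrow. Lyz2 differed by -0.43 with overlap, at 5.16, 5.29 and 7.88 in lamina propria pools 1 to 3, against 6.29 to 6.94 in marrow. In pool 3, 5 of the 9 lay above all marrow pools and 1 below, beside 24.8% and 26.7% of all genes. The median over the 9 was 0.69 from the marrow mean in pool 3. All genes at marrow means of 4 to 5 and 5 to 6 had medians of 0.01 and -0.02 there. The 5 of 6 measured plasmacytoid markers summed to 27.4, 27.0 and 24.7 in the lamina propria, and to 24.0 to 24.6 in marrow. All genes at a marrow mean of 4 to 5 were likewise higher in pools 1 and 2, with medians of 0.52, 0.54 and 0.01 in pools 1 to 3. Siglech, the most specific of them, was at 5.21 to 5.60 in the lamina propria and 5.18 to 5.41 in marrow. Both sums averaged higher in the lamina propria, whereas Samd9l, Eif2ak2 and Rtp4 lay lower there, and the part of these cells in any value was not tested.

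Promoter sequences of the targets show the element that the STAT and IRF complex reads. RefSeq promoters of GRCm38.p6, from 250 bases before to 50 after the annotated start, were found for 24 of the 33 genes and searched on both strands for the core of the element, GAAA followed by any 2 bases and GAAA again, which reads TTTC, 2 bases and TTTC on the opposite strand. A match was present for 11 of 24 genes (45.8%), beside 1079 of 27025 genes in the whole table (3.99%) for windows of the same 300 bases. Overlapping matches were allowed. With a stricter form that asks for a C after the second GAAA, these shares were 8 of 24 (33.3%) and 0.944%. The stretches below are shown because Ifit1, Ifit3 and Rsad2 are standard reporters of the response, Oas3 was higher in every lamina propria pool and Stat2 is part of the complex itself. Matches are in capitals, each stretch runs 5′ to 3′ along the gene's strand and ends before the start, and all lie in GRCm38.p6.
Ifit1, chr19:34640770-34640828, plus strand: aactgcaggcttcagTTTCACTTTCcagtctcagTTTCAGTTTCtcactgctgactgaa
Ifit3, chr19:34583358-34583431, plus strand: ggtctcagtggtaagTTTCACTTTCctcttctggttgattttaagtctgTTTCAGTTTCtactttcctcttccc
Rsad2, chr12:26456548-26456587, minus strand: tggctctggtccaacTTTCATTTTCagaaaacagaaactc
Oas3, chr5:120777710-120777749, minus strand: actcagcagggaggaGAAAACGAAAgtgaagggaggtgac
Stat2, chr10:128270261-128270300, plus strand: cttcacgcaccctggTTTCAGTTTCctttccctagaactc
Ifit1 and Ifit3, which lie on the same chromosome, each hold 2 matches with the same 10 letters in the same order, and the second of these is also the match in Stat2.

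**Figure D4:**
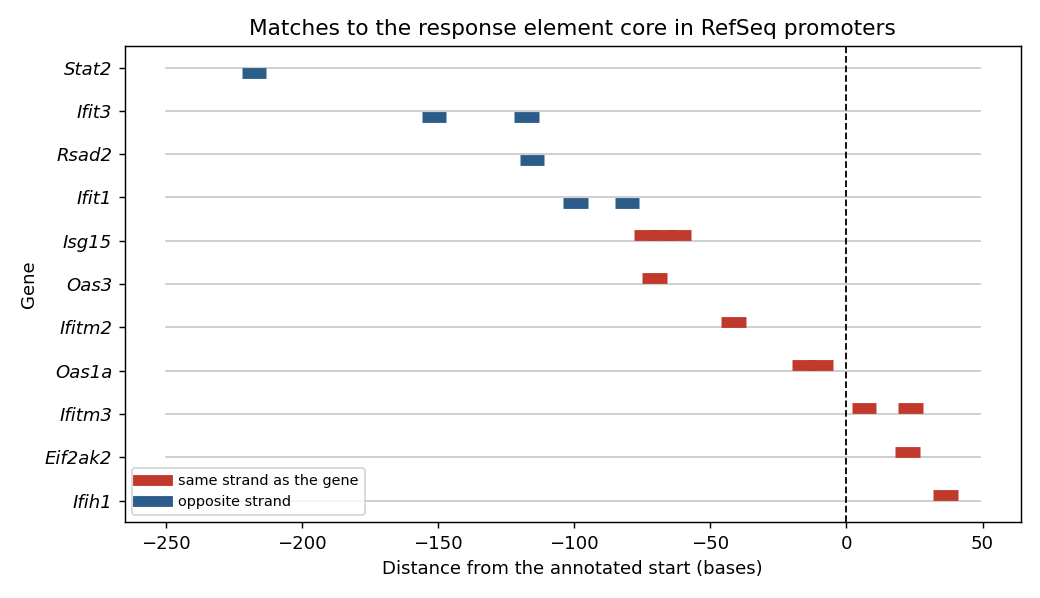
Horizontal axis, distance in bases from the annotated start (dashed line, 250 before to 50 after), with 1 row for each of the 11 genes with a match and bars for matches on the gene's strand (red) or the opposite strand (blue). Matches lie before the start in 8 genes and after it in Ifitm3, Eif2ak2 and Ifih1.

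The presence of a match did not go with 1 direction in these arrays. The 10 measured genes with a match had a median difference of -0.32 and ran from -2.25 (Eif2ak2) to 1.54 (Ifitm3), with 6 negative. The 12 measured genes with a promoter and no match had a median of -0.01 and ran from -3.35 (Samd9l) to 0.95 (Ifitm1), with 7 negative. In pool 3, 4 of the 10 and 5 of the 12 lay below all marrow pools. Promoters of Rtp4, Parp14 and Parp9 were not used here. An absent match says only that these letters are not in this window.

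Upstream of these targets, the interferon genes themselves gave small positive differences. Of 15 measured, 14 were positive (93.3%, beside 67.6% of all genes) with a median of 0.35, and none was called. In all, 3 lay higher in every lamina propria pool (20%, beside 14.8% of all genes), namely Ifna9, Ifna14 and Ifna11, at 0.79, 0.39 and 0.35. Their marrow means were 5.51, 6.71 and 2.73. All genes at marrow means of 4 to 5, 5 to 6 and 6 to 7 had median differences of 0.36, 0.30 and -0.06. Ifnb1, the first interferon made by most cells, had 4.65, 4.80 and 4.18 in the lamina propria pools, against 4.22, 4.03 and 4.19 in the marrow pools, so pools 1 and 2 were above the marrow and pool 3 inside its range. The Ifna genes are near-identical copies, and their probe sets may share signal.

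Of the 10 measured receptor and kinase genes, none was called, 6 were negative and the median was -0.15. Over all genes 32.4% were negative, and among those above the median level 52.4%. Ifnar1 differed by -0.27 (95% interval -0.84 to 0.30). Ifnar2 had 5.44, 5.80 and 8.27 in the lamina propria pools, against 8.56, 8.41 and 8.13 in the marrow pools. Pools 1 and 2 were far below the marrow and pool 3 inside its range, and the difference of -1.86 (95% interval -3.46 to -0.26, limma adjusted p = 0.356) was -0.10 in pool 3 alone. Ifnar2 was at -2.92 and -2.57 from the marrow mean in pools 1 and 2. All genes at its marrow level, 8 to 9, had medians of -1.38 and -1.55 there. The kinase genes Jak1 and Jak2 had the same split, with differences of 0.13 and 0.18 in pool 3 and between -3.32 and -1.31 in pools 1 and 2. In pools 1 and 2 all genes at the marrow level of Jak1, 9 to 10, had medians of -1.03 and -1.10. At that of Jak2, 7 to 8, these medians were -1.02 and -1.07. Il10rb, a chain of the interferon lambda and IL-10 receptors, was the 1 gene of these 10 lower in every pool, at -0.88. Over all genes, 7.27% lay lower in every pool.

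Among 14 genes of interferon induction, Ddx58, which encodes the RNA sensor RIG-I, had 6.19, 5.78 and 6.78 in the lamina propria pools, against 7.83, 7.24 and 7.72 in the marrow pools. All lamina propria pools were under the marrow, and the difference was -1.34 (95% interval -2.07 to -0.62, limma adjusted p = 0.291). Tbk1, the kinase that activates IRF3, was also lower in every pool, at -1.26. In pools 1 to 3 Ddx58 was at -1.41, -1.81 and -0.81 from the marrow mean, and Tbk1 at -1.60, -1.99 and -0.19. All genes at their marrow level, 7 to 8, had a median difference of -0.69, with -1.02, -1.07 and -0.05 in these pools. Tlr3, an endosomal sensor, was higher in every pool, at 0.39, but pool 3 was only just above the highest marrow pool (3.98 against 3.96). All genes at its marrow level, 3 to 4, had a median difference of 0.33. Of the 14, 1 was higher in every pool and 2 lower, beside 14.8% and 7.27% of all genes. Irf3 itself differed by 0.16 with overlap. Irf1, a factor induced by interferon gamma and by activation, had 8.94, 7.17 and 9.41 in the lamina propria pools, against 6.57, 7.57 and 7.62 in the marrow pools. It was high in pools 1 and 3 and inside the marrow range in pool 2.

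Of 9 inhibitor genes, Socs3 and Socs1, feedback inhibitors of JAK kinases, were higher in every lamina propria pool, at 0.86 (limma adjusted p = 0.319) and 0.70 (limma adjusted p = 0.356). Socs3 had 6.68, 7.01 and 6.46 in the lamina propria pools, against 5.68, 5.88 and 6.01 in the marrow pools. Socs1 had 7.04, 7.43 and 6.42, against 6.38, 6.20 and 6.21, so its pool 3 was only just above the highest marrow pool. Pias1, a SUMO ligase, was lower in every pool, at -1.46, with -0.40 in pool 3. All genes at its marrow level, 7 to 8, had a median difference of -0.69, with -0.05 in pool 3. Of the 9, 2 lay higher in every lamina propria pool and 1 lower, beside 14.8% and 7.27% of all genes. None passed the threshold.

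A further 42 measured induced genes outside the list had a median of -0.14, with 25 negative, none called, 6 higher in every lamina propria pool and 6 lower (14.3% each, beside 14.8% and 7.27% of all genes). Sp100, a nuclear body protein, Nmi, a partner of STAT proteins, and Trim34a, a Trim family gene, were lower in every pool, at -2.58, -1.90 and -1.73. In pool 3 alone they were at -1.27, -0.61 and -1.02 from the marrow mean. All genes at their marrow level, 8 to 9, had a median difference of -0.97, with -1.38, -1.55 and -0.04 in pools 1 to 3. Ddx60, a helicase that assists RIG-I, had 4.53, 4.12 and 4.41 in the lamina propria pools, against 5.19, 6.10 and 5.69 in the marrow pools, a difference of -1.31 (95% interval -1.96 to -0.65, limma adjusted p = 0.268) that was -1.25 in pool 3. In pool 3, however, this wider set went the other way from the list of 31. Of the 42, 16 (38.1%) lay above all marrow pools, beside 24.8% of all genes, and 10 (23.8%) below, beside 26.7%.

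The guanylate-binding proteins, which act in defence within cells, were singled out after their values were seen. In pool 3, 4 of 5 measured Gbp genes lay above all marrow pools and 1, Gbp9, below, at 8.15 against 8.37 to 9.25 in the marrow pools. Over all genes these shares were 24.8% and 26.7%. Gbp5 was only just above, at 5.947 against 5.941 in the highest marrow pool, and Gbp4 was at 6.70 against 6.48. Gbp3, of this family, had 5.90, 5.61 and 7.82 in the lamina propria pools, against 6.35, 6.26 and 6.39 in the marrow pools. Gbp7, of the same family, had 5.86, 7.93 and 9.18 in the lamina propria pools, against 7.47, 7.86 and 8.22 in the marrow pools. Both were above the marrow in pool 3 alone. The GTPase genes Irgm1 and Iigp1 were at 6.58 and 5.80 in pool 3, inside the marrow range. Cxcl10, a chemokine that draws T cells, had 4.93, 5.11 and 6.02 in the lamina propria pools, against 4.66, 4.67 and 4.57 in the marrow pools, and so was higher in every pool and most in pool 3. In the same array Ifit3 was at 3.98, Rtp4 at 5.38 and Samd9l at 5.92, each below every marrow pool.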

How the data were processed

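Between 4.5 and 47 ng of Trizol-extracted RNA entered amplification and biotin labelling, per the labels' protocols. The values the authors deposited are on the log2 scale and come from RMA. Per the submitters' processing notes the software was Affymetrix Expression Console, version 1.3.0.187, with settings not given in the sources used here. Distributions of the deposited values differ between arrays, and 2 other scalings were run. The file held 35556 probe sets, of which 21789 had 1 gene symbol in the platform table, 1621 several and 12146 none there. The brightest probe set stood for each of 19938 genes. The tissues were compared over all genes by limma (version 3.58.1, lmFit and eBayes, two-sided, no block, R 4.3.3), and the fit was tested on simulated data. Pools are the replicates.

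The members and lists were chosen with earlier results of these data known. Values per array were given for the 2 brightest genes of each role, those with no overlap and the 3 largest differences each way. In the wider pathway Ifnar1, Ifnar2, Irf3 and up to 3 separated genes per list were named. Any further gene, such as Gbp3, Gbp7, Cxcl10, Ddx60, Irf1 and Dtx3l, was picked from its values. Of 105 wider-pathway symbols 90 were measured. Pools with the same number were checked for pairing by the correlation of their deviations from the tissue means. Alternatives were a block, 2 scalings, other variance models, array weights, a level filter, averaged probe sets and left-out arrays. Figures used matplotlib 3.10.9.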

Additional observations from a re-analysis of the deposited data

How the results depend on the processing

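Over all genes limma called 0, and 0 of the 31 interferon-stimulated genes. With the pool number as a replicate block it called 16 genes and 2 of the 31 (Samd9l and Eif2ak2, adjusted p = 0.0476 each), with an intensity trend and robust variances 40 and 2, and with array weights 5586 and 6. Leaving out 1 array gave 0 to 7222 genes and 0 to 7 of the 31, the highest without lamina propria pool 3. Same-numbered pools correlated in their deviations at 0.131, 0.051 and 0.226, and lamina propria pool 2 correlated best with marrow pool 1 (0.133), and the labels give no shared source, so pools were not treated as paired. The count of the 31 with no overlap was 7 (beside 22.1% of all genes), and 8 to 12 with any 1 array removed. Over all genes the share was then 25.7% to 31.6%, or 69.9% without lamina propria pool 3, where the count was 12. For pool 3 alone it was 18 of the 31 (beside 51.5% of all genes), where fewer arrays make separation easier. The median over the 31 of -0.12 ran from -0.22 to 0.026, with 0.026 reached without marrow pool 2, and was -0.33 for pool 3 alone. Centring arrays or cyclic loess gave 23 of 31 negative against 19, and moved the median of all genes from 0.22 to 0.12 and 0.01. The number of genes with the promoter core was 11, and 8 under both alternatives.

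Of 423 member differences under 14 alternatives, 355 kept direction and side of the threshold, 17 passed in addition and 51 turned sign. Turned values with centring were -0.054 for Oas1a, -0.094 for Ifit2, -0.083 for Mx2 and -0.084 for Cmpk2. With cyclic loess they were -0.028 for Oas2, -0.0072 for Oasl2, -0.078 for Mx1, -0.24 for Mx2, -0.31 for Cmpk2 and 0.058 for Ifi35. With array weights they were -0.010 for Oas1a and -0.015 for Mx2. For pool 3 alone they were 0.094 for Irf9, 0.056 for Irf7, -0.085 for Oas2, -0.33 for Oasl2, 0.32 for Adar, -0.88 for Ifitm3, -0.061 for Mx1, -0.077 for Rsad2, -0.087 for Cmpk2 and 0.0055 for Ifi35. When 1 array was left out, the differences that turned ran from -0.22 to 0.20 for Irf7, -0.68 to 0.012 for Ifih1, -0.41 to 0.13 for Zbp1, -0.051 to 0.16 for Oas1a, -0.0006 to 0.25 for Oas2, -0.34 to 0.10 for Adar, -0.23 to 0.25 for Ifit2, -1.50 to 0.34 for Ifitm2, -0.11 to 0.17 for Mx2, -0.038 to 0.073 for Cmpk2, -0.73 to 0.19 for Xaf1 and -0.27 to 0.16 for Ifi35. The cause was not tested. Samd9l, Eif2ak2, Rtp4, Parp14 and Trim25 were negative, and Oasl1 and Oas3 positive, under every alternative run. The number of arrays and the unknown signal over background limit the precision.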
